A study of Rattus norvegicus with 102 samples.

Results

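Collagen genes were followed across the CA1, CA3 and dentate gyrus (DG) subfields of the rat hippocampus and between aged and young rats. Genes were taken from the table of normalized counts by symbol, as every gene whose name begins with Col, a number, the letter a and a second number. Of 26689 genes in the table, 42 matched. Of these, 41 were collagen genes of 40 symbols, since Col23a1 has 2 entries. The remaining match, Col4a3bp, encodes a ceramide transport protein that is named for its binding to a collagen IV chain, and it was kept apart. Both Col23a1 entries carry 1 symbol and could be 1 gene whose reads are split, so their values are uncertain. Col2a1, Col4a6, Col10a1, Col12a1 and Col21a1 were not analysed here.

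Collagens are extracellular proteins in which alpha chains wind into a triple helix, and chains of a family assemble in fixed partnerships. In brain, fibrillar collagens are known mainly from fibroblasts of the meninges and of larger vessels, collagen IV from the basement membrane around every vessel, collagen VI from the matrix beside basement membranes, and several minor collagens from neurons. A membrane-spanning collagen, Col25a1, is known as a neuronal protein that binds amyloid.

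The samples were poly-A RNA libraries of the 3 subfields from 34 male Fischer 344 rats, with 1 library per subfield and rat. The young group (Y) held 10 rats of 5 to 6 months, and the aged group held 24 rats of 17 to 22 months. Memory had been measured beforehand with a spatial water maze task, and its score divided the aged rats into 12 aged-unimpaired (AU) and 12 aged-impaired (AI) rats. The labels name no transgene and no drug. Subfields were cut from the hippocampus as whole tissue, so each library mixes neurons, glia and vessels.

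Depth and composition differed among libraries. Recovered reads numbered 4478984 in the shallowest library and 21467303 in the deepest (median 9755402), and in CA1 the median was 13389945 in young and 10117285 in aged rats. The rat identifiers form 2 series, R9 with 16 rats and R1-R2 with 18 rats, and the labels do not say what they stand for. Rats came from sites in Arizona and Florida, in numbers of young and aged rats equal to those of the series, but no label ties a series to a site. In 84 libraries the neuron markers of the labelled subfield scored above those of the other subfields. In the R1-R2 series this held for 54 of 54 libraries. In the R9 series it held for 14 of 16 CA1 and 14 of 16 DG libraries, but for 2 of 16 libraries labelled CA3, of which 10 had CA1 markers and 4 had DG markers highest. The labels of these CA3 libraries are therefore in doubt, which tissue they hold was not tested, and CA3 values include them unless stated. Of the CA3 markers used, Grik4, Nnat, Slit2 and Spock1 had their highest median in CA3. Cpne4 (4407, against 3101 in CA3) and Bok (619 against 519) had it in DG, and Rgs14 (1881 against 1693) in CA1. The CA1 marker Fibcd1 had its highest median in CA3 (558, against 522 in CA1). These medians include the libraries in doubt. In 5 libraries, all of aged rats (3 CA1, 2 CA3), over 300 of 14236 genes with a mean of at least 20 were listed at 0, against a median of 3 genes and at most 115 in the other libraries. Summed fibroblast markers exceeded 3 times the subfield median in 6 libraries, and summed choroid plexus markers exceeded 10 times the subfield median in 9. Calls that were lost, and the main calls that were gained, without these libraries are given below, except for those high in choroid plexus markers. Without the latter, only the age comparison on the mean of the subfields is given.

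Collagen transcripts were widely detected. Normalized counts are reads divided by a size factor for each library, so levels were compared between samples and not between genes. Of the 41 collagen entries, 37 reached a mean of 5 normalized counts over all libraries and were tested in the subfield comparisons. These comprised 10 fibrillar collagens, 5 chains of collagen IV, 5 of collagen VI, 8 collagens of the FACIT group (fibril-associated collagens with interrupted helices), 4 membrane-spanning entries, 2 multiplexins and 3 others. Col6a4, Col17a1, Col26a1 and Col28a1 fell under the mean of 5. Col26a1 was listed at 0 in 18 of 34 DG libraries and reached at most 6.25 normalized counts there, and Col17a1 reached at most 15.8 in any library. In the 5 libraries with many genes at 0, between 0 and 8 of the 29 collagens with a mean of at least 20 were listed at 0.

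**Figure D1:**
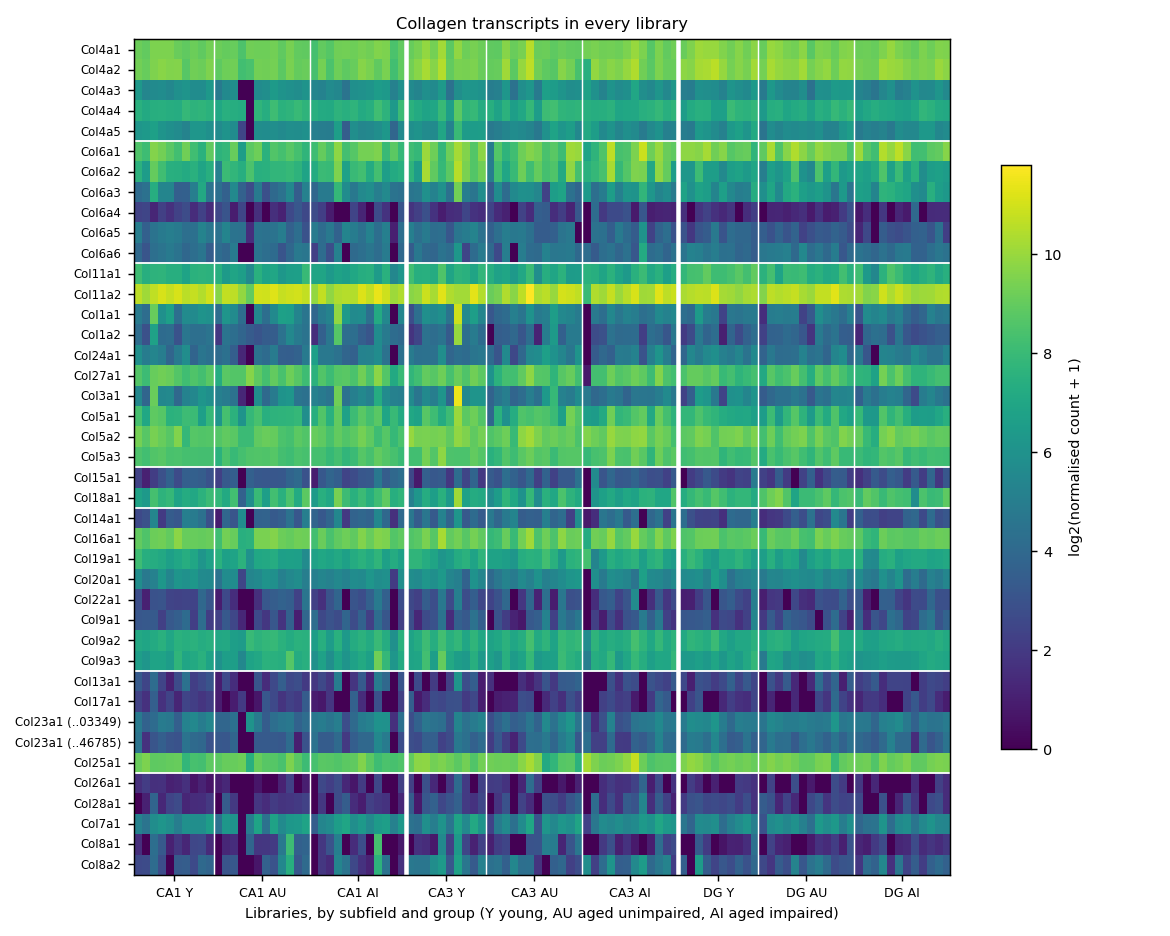
Level of each collagen entry (vertical axis, grouped by family) in each library (horizontal axis, 34 a subfield, grouped by subfield and rat group). Colour gives log2(normalized count + 1). Col4a1, Col4a2, Col11a2 and Col16a1 were present in every library, whereas Col17a1 and Col26a1 were at or near 0 in many.

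Subfields were compared over all rats with limma on log2(normalized count + 1), so that fold changes are on that scale and understate changes of low genes. Genes were called at a Benjamini-Hochberg adjusted p under 0.05 over 16374 genes. Of the 37 collagens, 18 were called in at least 1 of the 3 comparisons. Only Col6a2 was called in all 3, 7 were called in 2, 10 in 1, and 19 in none. In CA1 against CA3, 4 of 37 were called, 10.8% against 15.0% of all genes. All 4 were lower in CA1, where 7.76% of all genes were called lower and 7.29% higher. In CA1 against DG, 12 of 37 were called, 32.4% against 28.5% of all genes. Of these, 2 were higher in CA1 and 10 were lower, whereas 14.5% of all genes were called higher and 14.0% lower. In CA3 against DG, 11 of 37 were called, 29.7% against 28.9% of all genes, with 6 higher in CA3 and 5 lower (15.3% and 13.6% of all genes). The share of collagens called was thus near that of all genes in each comparison. Since the 3 comparisons share libraries, their calls are not independent of each other.

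The direction of the calls depended on the libraries and on the method. Without the 5 libraries with many genes at 0, limma called 18 collagens for CA1 against DG, with 10 higher in CA1 and 8 lower, and 34.4% of all genes. The 8 that were added were all higher in CA1, and comprised Col1a1, Col1a2, Col3a1, Col4a4, Col7a1, Col9a3, Col11a2 and Col15a1. Col6a6 and 1 Col23a1 entry (ENSRNOG00000003349) were no longer called. In a fit with rat as a block, 16 collagens were called, with 5 higher and 11 lower, and 31.8% of all genes. Over all libraries edgeR called 7 higher and 9 lower (31.6% of all genes), and so did DESeq2 (33.5%), while limma on R9 rats alone called 5 higher and 6 lower. For CA3 against DG, edgeR called 11 higher and 4 lower (31.9% of all genes) and DESeq2 9 and 4 (33.5%). With either the fibroblast or the vascular score as a covariate, limma called 3 higher and 8 lower there.

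Fits without the libraries that stand apart also gained calls by limma. For CA1 against CA3, without the 18 libraries with markers of another subfield highest, Col18a1 (1.05), Col13a1 (1.32) and Col1a2 (1.08) were called higher in CA1 and Col4a1 (-0.34) and Col4a2 (-0.49) lower. Without the 5 libraries with many genes at 0, Col18a1 was called higher in CA1 (0.64), and without the 6 libraries high in fibroblast markers, Col6a3 (-0.69), Col4a1 (-0.25), Col4a2 (-0.33) and Col5a3 (-0.28) were called lower. For CA3 against DG, without the 18 libraries, Col8a2 (1.23), Col15a1 (0.74), Col5a2 (0.43) and Col25a1 (0.33) were called higher in CA3, and Col6a1 (-0.85), Col13a1 (-1.34) and Col23a1 (ENSRNOG00000046785, -1.23) lower. Without the 5 libraries, Col1a1 (0.70), Col15a1 (0.68) and Col9a2 (0.25) were called higher in CA3 and Col23a1 (ENSRNOG00000046785, -0.62) lower.

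**Figure D2:**
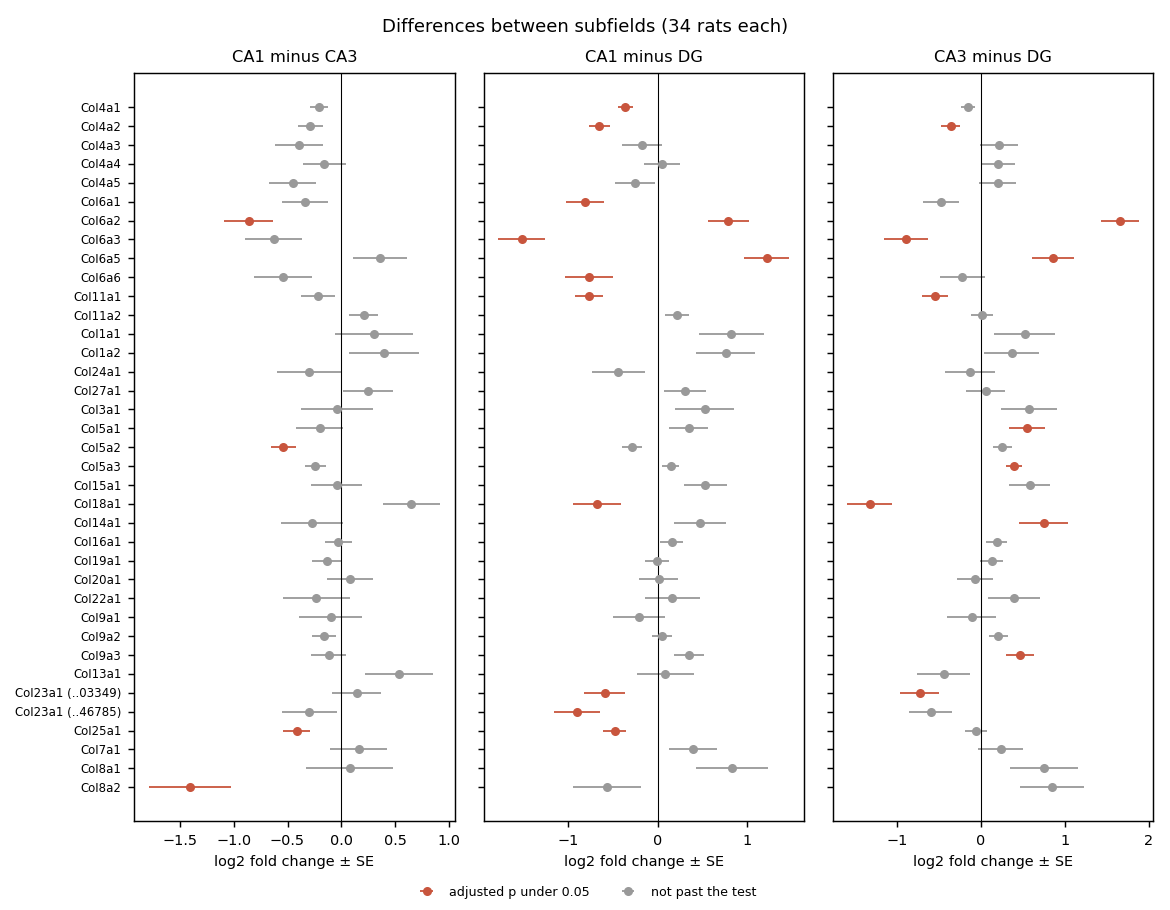
Log2 fold change (horizontal axis, point) with its standard error (bar) of the 37 tested collagens in each subfield comparison, 34 rats a subfield. Red marks an adjusted p under 0.05. Col6a2 is red in all 3 panels, at -0.86 (CA1 minus CA3), 0.79 (CA1 minus DG) and 1.65 (CA3 minus DG).

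Collagen IV forms the sheet of the basement membrane, and Col4a1 and Col4a2 encode the chains found in every vessel wall. Both were lower in CA1 than in DG. Col4a2 ranged from 299 to 836 normalized counts in CA1 with a median of 591, from 175 to 1596 in CA3 with a median of 674, and from 583 to 1517 in DG with a median of 866. The ranges overlapped, although 30 of 34 rats had less Col4a2 in CA1 than in DG. The limma log2 fold change of Col4a2 was -0.65 ± 0.11 (SE) for CA1 against DG (adjusted p = 3.3e-06), -0.36 ± 0.11 for CA3 against DG (adjusted p = 0.0108) and -0.29 ± 0.11 for CA1 against CA3 (adjusted p = 0.0759). Col4a1 had medians of 573, 601 and 723 in CA1, CA3 and DG, and 26 of 34 rats were lower in CA1 than in DG. Its limma log2 fold change was -0.36 ± 0.08 for CA1 against DG (adjusted p = 0.000409), -0.15 ± 0.08 for CA3 against DG (adjusted p = 0.172) and -0.21 ± 0.08 for CA1 against CA3 (adjusted p = 0.0775). With rat as a block, Col4a1 and Col4a2 were also called lower in CA1 than in CA3 (limma adjusted p = 0.0405 and 0.024). The CA3 against DG call of Col4a2 was lost without the 18 libraries in which markers of another subfield were highest (-0.17 ± 0.13, limma adjusted p = 0.381), and among R1-R2 rats alone (-0.22 ± 0.18, adjusted p = 0.424).

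Vessel markers ran the other way. Of 10 endothelial markers, 7 were called higher in CA1 than in DG and none lower, and of 9 mural cell markers 4 were higher and none lower. Among all genes 14.5% were called higher in CA1 than in DG and 14.0% lower. Summed endothelial markers had a median of 3982 in CA1, 3092 in CA3 and 3004 in DG. Of 13 tested partners of collagen IV in the basement membrane (laminins, nidogens, perlecan and their like), 9 were called higher in CA1 than in DG and none lower, with a median log2 difference of 0.63. Lama3, a laminin chain, was among them (1.15 ± 0.16, limma adjusted p = 2.65e-09), as was Lama4, the laminin chain of endothelium (0.57 ± 0.12, limma adjusted p = 5.05e-05). Bulk tissue cannot tell fewer cells of a type from less RNA per cell, here or in any result below. The other collagen IV chains, Col4a3, Col4a4 and Col4a5, were not called in any subfield comparison by limma over all libraries without a block or covariate. Without the 5 libraries with many genes at 0, Col4a4 was called higher in CA1 than in DG (0.31). With the vascular score as a covariate Col4a5 was called lower in CA1 than in CA3 (-0.61). With the fibroblast score it was called lower in CA1 than in DG (-0.56). Col4a5, which pairs with Col4a3 and Col4a4 in some basement membranes, had limma log2 fold changes of 0.20 ± 0.22 (CA3 minus DG), -0.45 ± 0.22 (CA1 minus CA3) and -0.25 ± 0.22 (CA1 minus DG).

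Col4a1 and Col4a2 lie head to head on the chromosome, as do Col4a3 and Col4a4, so the sequence between the starts of a pair serves both genes. These sequences are shown because the partner chains varied together over rats. Partner chains outside collagen IV did so too, as given below, and a part of the sequences in this was not tested. In the RefSeq annotation of the GRCr8 assembly, 76 bases separate the starts of Col4a2 and Col4a1, at chr16:84885521-84885596 on the + strand. The starts of Col4a3 and Col4a4 are 412 bases apart, and the 250 bases before the start of Col4a3 lie at chr9:91323740-91323989 on the + strand. Both are upstream, non-coding sequence. Capitals mark the GC box, searched as GGGCGG on both strands (CCGCCC on the other strand).
Col4a2-Col4a1: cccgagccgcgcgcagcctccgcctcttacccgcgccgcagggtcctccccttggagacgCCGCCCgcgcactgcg
Col4a3: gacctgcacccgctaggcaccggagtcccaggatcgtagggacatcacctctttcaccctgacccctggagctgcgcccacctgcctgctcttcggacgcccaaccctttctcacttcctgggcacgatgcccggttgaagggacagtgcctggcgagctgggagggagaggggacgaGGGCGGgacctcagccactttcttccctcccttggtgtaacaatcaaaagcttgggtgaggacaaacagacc
Each window held 1 GC box and neither a CCAAT box (searched as CCAAT) nor a TATA box (searched as TATAAA). Over 33465 RefSeq promoter windows of 300 bases, a GC box was found in 33.1%, a CCAAT box in 37.5% and a TATA box in 14.2%. Of 36 windows of 33 collagen genes, 19 (52.8%) held a GC box, 11 (30.6%) a CCAAT box and 3 (8.33%) a TATA box. All of these windows are longer than the 76 and 250 bases shown, so the shares are not directly comparable with them. A match is a description of the letters and not of a bound site.

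Correlations of chain partners across the 34 rats of a subfield were computed on log2 values for 20 relations, with 100000 permutations, for which 1e-05 is the smallest p. Col4a1 and Col4a2 correlated in DG with a Pearson r of 0.87 (permutation p = 1e-05, adjusted p = 3.33e-05) and a Spearman rho of 0.86 (permutation p = 1e-05, adjusted p = 4e-05). In CA1 their Pearson r was 0.74 and in CA3 it was 0.73, each with a permutation p of 1e-05, and their Spearman rho was 0.66 (permutation p = 7e-05) and 0.80 (permutation p = 1e-05). Without the 2 rats farthest from the median, r was 0.87 in DG, 0.64 in CA1 and 0.64 in CA3. Within the R9 series r was 0.84, 0.70 and 0.62 in DG, CA1 and CA3, and within the R1-R2 series 0.87, 0.78 and 0.71. Col4a3 and Col4a4 correlated with a Pearson r of 0.71, 0.58 and 0.65 in CA1, CA3 and DG, with permutation p of 0.00175, 0.00027 and 3e-05, and their Spearman rho was 0.60, 0.61 and 0.65 (permutation p = 0.00021, 0.00017 and 5e-05). Within the R1-R2 series alone, r for Col4a3 and Col4a4 was 0.68 in CA1 (permutation p = 0.0221), 0.48 in CA3 (permutation p = 0.0432, adjusted p = 0.0597) and 0.43 in DG (permutation p = 0.075). By Pearson's r the relation thus did not pass in CA3 and DG of that series. By Spearman's rho it passed in CA3 (0.53, permutation p = 0.0252, adjusted p = 0.0388) but not in DG (0.47, permutation p = 0.0529, adjusted p = 0.0755). Within the R9 series r was 0.68, 0.75 and 0.67, and without the 2 rats farthest from the median 0.56, 0.45 and 0.71. By rank the CA1 relation passed in neither series alone, with a Spearman rho of 0.33 among R9 rats (permutation p = 0.218, adjusted 0.312) and 0.43 among R1-R2 rats (permutation p = 0.0791, adjusted 0.0988). Over all pairs and subfields tested, 15 of 20 relations passed by Pearson's r. Covariation was thus not particular to the collagen IV pairs. Col1a1 and Col1a2 had an r of 0.65, 0.88 and 0.78 in CA1, CA3 and DG. For Col6a1 and Col6a2 it was 0.58, 0.83 and 0.33, of which that in DG did not pass. Libraries share depth and composition, so a correlation between genes can also follow from these.

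Collagen VI forms beaded filaments from 1 chain each of Col6a1, Col6a2 and a longer chain, classically Col6a3. Relative to DG, Col6a2 was higher in CA1 and CA3 while Col6a3 was lower. Col6a2 ranged from 33.9 to 744 normalized counts in CA1 with a median of 178, from 31.3 to 1499 in CA3 with a median of 352, and from 32.1 to 379 in DG with a median of 101. Groups overlapped, but 31 of 34 rats had more Col6a2 in CA3 than in DG and 30 of 34 had more in CA1 than in DG. The limma log2 fold change of Col6a2 was 1.65 ± 0.23 for CA3 against DG (adjusted p = 3.97e-09), 0.79 ± 0.23 for CA1 relative to DG (adjusted p = 0.00456) and -0.86 ± 0.23 for CA1 against CA3 (adjusted p = 0.00353). The CA3 against DG difference held within the R9 series (2.05 ± 0.27) and within the R1-R2 series (1.29 ± 0.34, limma adjusted p = 0.00275). The CA1 against CA3 call did not hold in the R1-R2 series (-0.45 ± 0.34, limma adjusted p = 0.383), or without the 18 libraries with markers of another subfield highest (-0.64 ± 0.26, limma adjusted p = 0.058). The CA1 against DG call of Col6a2 was lost with the fibroblast score (0.54 ± 0.21, limma adjusted p = 0.0518) or the vascular score (0.43 ± 0.22, adjusted p = 0.154) as a covariate, and in the R1-R2 series alone (0.85 ± 0.34, adjusted p = 0.0869).

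Col6a3 was lower in CA1 and in CA3 than in DG, and Col6a1 was lower in CA1 than in DG. Between CA1 and CA3, all 3 chains had values below 0. Col6a3 ranged from 5.75 to 233 normalized counts in CA1 with a median of 26.4, from 4.05 to 618 in CA3 with a median of 44.9, and from 23.0 to 206 in DG with a median of 94.2. It was lower than in DG in 27 of 34 rats for CA1 and in 27 of 34 for CA3, with overlapping ranges. Its limma log2 fold change was -1.52 ± 0.26 for CA1 against DG (adjusted p = 2.1e-06), -0.89 ± 0.26 for CA3 against DG (adjusted p = 0.00596) and -0.63 ± 0.26 for CA1 against CA3 (adjusted p = 0.0927). By edgeR (-0.47, adjusted p = 0.185) and by DESeq2 (-0.46, adjusted p = 0.197) the CA3 against DG call of Col6a3 was not made, whereas without the libraries high in fibroblast markers both made it. Limma lost that call in the R9 series alone, where 10 of 16 rats were lower in CA3, against 17 of 18 R1-R2 rats. Col6a1 had medians of 379, 510 and 705 in CA1, CA3 and DG. It was lower in CA1 than in DG in 27 of 34 rats (limma log2 fold change -0.81 ± 0.21, adjusted p = 0.00167), and it was not called for CA3 against DG (-0.47 ± 0.21, adjusted p = 0.0802) or CA1 against CA3 (-0.34 ± 0.21, adjusted p = 0.31). The CA1 against DG call of Col6a1 was lost in the R9 series alone. Its CA1 against CA3 difference was called by edgeR and by DESeq2 (-0.54 by each). For CA3 minus DG, Col6a1 differed by 0.41 among R9 rats and by -1.26 among R1-R2 rats, and these differed from each other (limma adjusted p = 0.0012).

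**Figure D3:**
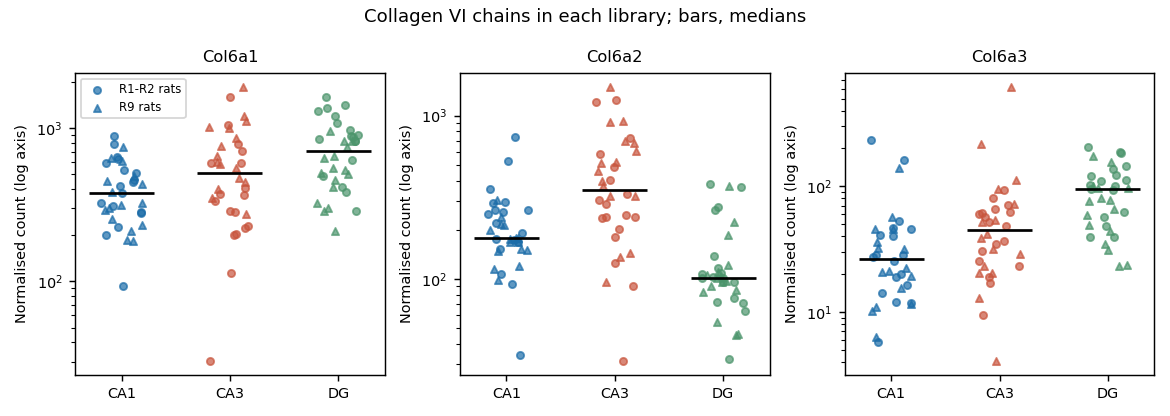
Normalized counts (vertical log axis) of 3 collagen VI chains in each library by subfield, with circles for R1-R2 rats, triangles for R9 rats and bars for medians of 34 libraries. Median Col6a2 was lowest in DG at 101, whereas median Col6a1 and Col6a3 were highest there at 705 and 94.2.

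The balance of Col6a2 to Col6a1, a comparison chosen after these values were seen, was computed as a log2 ratio in each library. Its mean was -0.96 ± 0.67 (SD, n = 34) for CA1, -0.43 ± 0.68 for CA3 and -2.56 ± 0.92 for DG. The ratio was higher in CA3 than in DG in 33 of 34 rats, by 2.12 ± 1.14 (SD of the differences within rats). It was higher in CA1 than in DG in 32 of 34 rats, by 1.60 ± 1.16. In CA1 it was higher than in CA3 in 8 of 34 rats, and the difference was -0.52 ± 0.91. Against DG the differences kept their direction in both series, at 1.64 (CA3) and 1.27 (CA1) among R9 rats and at 2.55 and 1.90 among R1-R2 rats, while that of CA1 and CA3 was -0.37 and -0.65. Since the ratio was picked for its pattern in these libraries, it is a description without a test.

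Col6a5 and Col6a6 encode alternatives to the long chain. Col6a5 ranged from 1.06 to 39.8 normalized counts in CA1 with a median of 21.4, from 0 to 66.0 in CA3 with a median of 19.0, and from 0 to 26.3 in DG with a median of 8.12. It was higher in CA1 than in DG in 31 of 34 rats (limma log2 fold change 1.22 ± 0.25, adjusted p = 6.32e-05) and higher in CA3 than in DG in 29 of 34 (0.86 ± 0.25, adjusted p = 0.00511). Col6a5 was thus highest where Col6a3 was lowest, with overlap among libraries of each. Col6a6 was called lower in CA1 than in DG (-0.76 ± 0.27, limma adjusted p = 0.0243), with medians of 16.9 and 20.7, and this call was lost without the 5 libraries with many genes at 0 (-0.41 ± 0.22, adjusted p = 0.134). It was lower in CA1 in 17 of 18 R1-R2 rats but in 6 of 16 R9 rats. In the R9 series alone limma lost the call of Col6a6 and both calls of Col6a5.

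Among fibrillar collagens, the minor chains carried the calls. Col11a1, a chain that limits fibril width, ranged from 42.5 to 279 normalized counts in CA1 with a median of 123, from 56.8 to 376 in CA3 with a median of 161, and from 42.6 to 499 in DG with a median of 241. It was lower than in DG in 28 of 34 rats for CA1 and in 26 of 34 for CA3. The limma log2 fold change of Col11a1 was -0.76 ± 0.15 for CA1 against DG (adjusted p = 4.78e-05), -0.55 ± 0.15 for CA3 against DG (adjusted p = 0.00392) and -0.22 ± 0.15 for CA1 against CA3 (adjusted p = 0.387). Among R1-R2 rats alone the CA3 against DG call was lost (-0.47 ± 0.22, adjusted p = 0.123). Its partner Col11a2 was not called by limma over all libraries in any subfield comparison, with medians of 1668, 1348 and 1321 in CA1, CA3 and DG. Limma called Col11a2 higher in CA1 than in DG without the 5 libraries with many genes at 0 (0.31) and in the R9 series alone (0.48).

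Collagen V chains, which start fibrils and pair in the same molecules, were not all called in the same comparison. Over all libraries without a block, limma called Col5a2 for CA1 against CA3, and Col5a1 and Col5a3 for CA3 against DG. Col5a2 was lower in CA1 than in CA3 in 27 of 34 rats, with medians of 426 in CA1, 645 in CA3 and 523 in DG (limma log2 fold change -0.54 ± 0.11 for CA1 against CA3, adjusted p = 0.000216). That call was made in each identifier series alone. Col5a3 was higher in CA3 than in DG in 26 of 34 rats, with medians of 390 and 289 (0.39 ± 0.10, limma adjusted p = 0.00082), a call made among R9 rats alone (0.45 ± 0.11) but not among R1-R2 rats alone (0.33 ± 0.15, adjusted p = 0.119). Col5a1 was higher in CA3 than in DG over all rats (0.55 ± 0.22, limma adjusted p = 0.0481), with medians of 279 and 162. In the R9 series 15 of 16 rats had more Col5a1 in CA3 than in DG (1.40 ± 0.24), whereas in the R1-R2 series 8 of 18 did (-0.21 ± 0.31), and the 2 series differed (limma adjusted p = 0.000517). It was one of the calls lost without the 6 libraries high in fibroblast markers and without the 18 libraries with markers of another subfield highest (0.14 ± 0.24, adjusted p = 0.711). With rat as a block, Col5a3 was also called lower in CA1 than in CA3 (-0.24 ± 0.08, limma adjusted p = 0.0286). With that block Col5a2 was called lower in CA1 than in DG (-0.28 ± 0.10, adjusted p = 0.0222) and higher in CA3 than in DG (0.26 ± 0.10, adjusted p = 0.0386).

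Collagens I and III, the main fibrillar collagens of connective tissue, were low in most libraries and very high in a few. Col1a1 ranged from 0 to 951 normalized counts in CA1 with a median of 46.6, from 0 to 1951 in CA3 with a median of 33.2, and from 1.95 to 85.4 in DG with a median of 26.2. Col3a1 ranged from 0 to 610, from 12.5 to 2899 and from 4.01 to 90.4, with medians of 35.0, 28.1 and 25.4. Col1a2 reached 415 in CA1 and 1001 in CA3 but at most 28.1 in DG. The highest values were thus in CA1 and CA3 libraries, and the bulk of libraries overlapped.

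Neither gene of collagen I nor Col3a1 was called between subfields by limma without a block. For CA1 against DG the limma log2 fold change was 0.82 ± 0.36 for Col1a1 (adjusted p = 0.0775), 0.76 ± 0.32 for Col1a2 (adjusted p = 0.0678) and 0.53 ± 0.33 for Col3a1 (adjusted p = 0.232). Relative to DG, CA3 was at 0.52 ± 0.36, 0.37 ± 0.32 and 0.57 ± 0.33, and relative to CA3, CA1 was at 0.30 ± 0.36, 0.39 ± 0.32 and -0.04 ± 0.33. With rat as a block, Col1a1 and Col1a2 were called higher in CA1 than in DG (limma adjusted p = 0.0329 and 0.0109). edgeR called all 3 genes higher in CA1 than in DG (Col1a1 1.68, Col1a2 1.40, Col3a1 1.22) and in CA3 than in DG (1.74, 1.92 and 2.01). DESeq2 called Col1a1 (1.18) and Col1a2 (0.77) higher in CA1 than in DG and Col1a1 (0.79) higher in CA1 than in CA3. Of 12 fibroblast markers, 4 were called higher in CA1 than in DG and 5 higher in CA3 than in DG, none lower in either. Among all genes 14.5% and 15.3% were called higher in these comparisons.

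These 3 genes varied with the fibroblast and the vascular markers over libraries. As a description, r with the fibroblast score over the 34 libraries of a subfield was 0.80, 0.78 and 0.59 for Col1a1 in CA1, CA3 and DG, 0.80, 0.82 and 0.68 for Col1a2, and 0.76, 0.87 and 0.56 for Col3a1. With the vascular score r was 0.69, 0.84 and 0.79 for Col1a1, 0.78, 0.88 and 0.83 for Col1a2, and 0.69, 0.62 and 0.66 for Col3a1. For Col11a1 it was 0.14, 0.02 and -0.23 with the fibroblast score and 0.04, -0.01 and -0.19 with the vascular score. The CA3 library of the young rat R9876 had summed fibroblast markers of 17380, 20.7 times the CA3 median, and 13 of 37 collagens were at their highest CA3 value in it. Col3a1 in that library was 103 times its CA3 median. These libraries share depth and dissection, and the part of other cells in the levels was not tested.

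**Figure D4:**
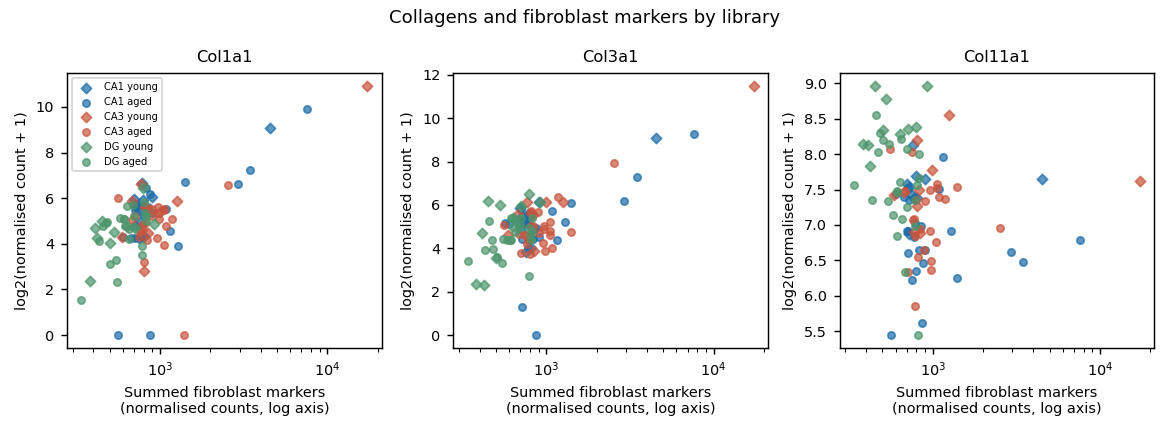
Col1a1, Col3a1 and Col11a1 as log2(normalized count + 1) against the summed counts of 12 fibroblast markers (horizontal log axis) in each library, by subfield and age. The library at the far right is CA3 of young rat R9876, with 17380 marker counts, 1951 of Col1a1 and 2899 of Col3a1, whereas its Col11a1 lies among the other libraries.

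Multiplexins are basement membrane collagens with sugar chains. Col18a1, the source of endostatin, ranged from 11.9 to 667 normalized counts in CA1 with a median of 185, from 0 to 1100 in CA3 with a median of 130, and from 53.1 to 769 in DG with a median of 291. It was lower in CA3 than in DG in 31 of 34 rats, 18 of 18 in the R1-R2 series and 13 of 16 in the R9 series. The limma log2 fold change of Col18a1 was -1.32 ± 0.27 for CA3 against DG (adjusted p = 4.33e-05), -0.67 ± 0.27 for CA1 relative to DG (adjusted p = 0.0466) and 0.65 ± 0.27 for CA1 against CA3 (adjusted p = 0.0876). The CA3 against DG difference was -1.98 ± 0.41 in the R1-R2 series and -0.58 ± 0.27 in the R9 series, and the series differed (limma adjusted p = 0.032). In the R9 series alone that call was lost, and the CA1 against DG call of Col18a1 was lost in each series alone. In the library of the young rat R9876 with high fibroblast markers, Col18a1 was at its CA3 maximum of 1100. Col15a1, the other multiplexin, was not called by limma over all libraries without a block (CA3 against DG 0.58 ± 0.24, adjusted p = 0.0589). Without the 5 libraries with many genes at 0, limma called Col15a1 higher than in DG in CA1 (0.59) and in CA3 (0.68). It was called higher in CA3 than in DG with rat as a block (limma adjusted p = 0.0354), by edgeR (adjusted p = 0.0465) and by DESeq2 (adjusted p = 0.028).

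Of 4 membrane-spanning entries, 3 were called lower in CA1 than in DG. Col25a1 ranged from 176 to 753 normalized counts in CA1 with a median of 448, from 145 to 1748 in CA3 with a median of 590, and from 253 to 949 in DG with a median of 607. It was lower in CA1 than in DG in 29 of 34 rats (limma log2 fold change -0.48 ± 0.13, adjusted p = 0.00224) and lower than in CA3 in 27 of 34 (-0.42 ± 0.13, adjusted p = 0.0144), while CA3 and DG were not called (-0.06 ± 0.13, adjusted p = 0.761). In CA3 the median of Col25a1 was 724 over 18 R1-R2 rats and 432 over 16 R9 rats. Without the 18 libraries with markers of another subfield highest, CA3 was called higher than DG (0.33 ± 0.12, limma adjusted p = 0.027). The CA1 against CA3 call was lost in the R9 series alone (-0.11 ± 0.17, adjusted p = 0.773). Without the 5 libraries with many genes at 0 that difference was -0.34 ± 0.13 (limma adjusted p = 0.0513).

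Both Col23a1 entries were lower in CA1 than in DG, at -0.89 ± 0.26 for ENSRNOG00000046785 (limma adjusted p = 0.0047) and -0.59 ± 0.23 for ENSRNOG00000003349 (adjusted p = 0.0436). The latter was also lower in CA3 than in DG (-0.73 ± 0.23, adjusted p = 0.0102), by 1.43 on the log2 scale in the R1-R2 series (-1.43 ± 0.31) but not in the R9 series (0.06 ± 0.29), and the series differed (limma adjusted p = 0.000599). Its levels were low, with medians of 24.2, 21.0 and 29.1 in CA1, CA3 and DG. In the R9 series alone the CA1 against DG calls of both entries were lost.

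Of the FACIT collagens, which decorate fibril surfaces, 2 of 8 were called by limma over all libraries without a block, each for CA3 against DG. Col9a3 was higher in CA3 (0.47 ± 0.16, limma adjusted p = 0.0236), with medians of 128 and 96.9. It was higher in CA3 in 15 of 18 R1-R2 rats but in 8 of 16 R9 rats. Col14a1 was higher in CA3 (0.75 ± 0.29, adjusted p = 0.0406), with medians of 15.2 and 6.09. The Col14a1 call was lost without the 6 libraries high in fibroblast markers (0.68 ± 0.28, adjusted p = 0.0607). It was also lost without the 18 libraries with markers of another subfield highest. Both FACIT calls were lost in the R9 series alone and with either the fibroblast or the vascular score as a covariate. With rat as a block Col9a3 was called higher in CA1 than in DG (0.35 ± 0.14, limma adjusted p = 0.047). Of the 3 remaining collagens, Col8a2, a chain of the hexagonal network of collagen VIII, was lower in CA1 than in CA3 (-1.41 ± 0.38, limma adjusted p = 0.00471). Its median was 6.56 normalized counts in CA1 and 19.8 in CA3, and it was listed at 0 in 6 CA1 libraries. That difference lay in the R1-R2 series, where 17 of 18 rats were lower in CA1 (-2.61 ± 0.47), and not in the R9 series, where 7 of 16 were (-0.06 ± 0.54), and the series differed (limma adjusted p = 0.0245). Neither edgeR (-0.56) nor DESeq2 (-0.54) called Col8a2 over all libraries, but both did without the 6 libraries high in fibroblast markers (-1.74 and -1.75). Without the 5 libraries with many genes at 0, limma gave -1.01 ± 0.38 (adjusted p = 0.0506). Its partner chain Col8a1 was not called by limma, with 0.83 ± 0.40 in CA1 (adjusted p = 0.11) and 0.75 ± 0.40 in CA3 (adjusted p = 0.155) relative to DG. edgeR (3.03 and 1.78) and DESeq2 (2.35 and 1.83) called Col8a1 higher than in DG in both, although its median was 2.69 normalized counts in CA1 libraries, 3.13 in those of CA3 and 1.55 in those of DG, with a highest value of 319 in CA1. Col7a1, the anchoring fibril collagen, was called over all libraries by DESeq2 (0.54 ± 0.21, adjusted p = 0.0381), higher in CA1 than in DG, but not by limma or edgeR.

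Other genes of the collagen pathway also differed between subfields. Of 23 tested genes of collagen synthesis and crosslinking, 8 were called higher and 5 lower in CA1 than in DG, 6 higher and 3 lower in CA3 than in DG, and none higher and 2 lower in CA1 than in CA3. For these lists, the shares of all genes called higher and lower were 14.5% and 14.0% for CA1 against DG. They were 15.3% and 13.6% for CA3 against DG, and 7.29% and 7.76% for CA1 against CA3. Serpinh1, the collagen chaperone, was higher in CA1 than in DG (0.53 ± 0.11, limma adjusted p = 6.07e-05), and Lox, which crosslinks collagen, was lower there (-1.10 ± 0.31, adjusted p = 0.00363). For CA3 against DG, Plod1, a lysyl hydroxylase, was higher (0.39 ± 0.06, limma adjusted p = 4.98e-07) and Lox was lower (-1.84 ± 0.31, adjusted p = 7.69e-07). Adamts3, a procollagen peptidase, was lower in CA1 than in CA3 (-0.36 ± 0.12, limma adjusted p = 0.0333). Of 12 genes of collagen breakdown and its inhibitors, 8 were higher and 1 lower in CA1 than in DG, and 6 higher and 1 lower in CA3 than in DG. Ctsk, a collagen-cutting cathepsin, was higher in CA1 than in DG (1.04 ± 0.16, limma adjusted p = 1.67e-07), Timp2, an inhibitor of matrix metalloproteinases, was higher in CA3 than in DG (0.82 ± 0.12, adjusted p = 8.67e-09), and Mmp16 was lower in both. Of 6 collagen receptors, Itga11 was lower in CA3 than in DG (-2.13 ± 0.28, limma adjusted p = 6.67e-10) and higher in CA1 than in CA3 (1.44 ± 0.28, adjusted p = 4.21e-05). Ddr2, a receptor kinase for fibrillar collagen, was lower than in DG in CA1 (-0.71 ± 0.15, limma adjusted p = 0.000104) and in CA3 (-0.96 ± 0.15, adjusted p = 1.65e-07).

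The identifier series differed in their subfield differences for several collagens. In limma on within-rat differences, 7 of 37 collagens differed between series for CA1 against CA3, where 14.2% of all genes did. For CA3 against DG, 9 of 38 did, against 19.0% of all genes. For CA1 against DG, none of 37 was called by limma, against 7.14% of all genes, and 4 had an unadjusted p under 0.05, as did 4421 of 16301 genes. The comparisons with differences thus were those that use the CA3 libraries. In the R9 series 2 of 16 CA3 libraries had CA3 markers highest. What the series stand for was not tested.

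No collagen was called by limma between aged and young rats within a subfield, while most log2 fold changes were below 0. In CA1, 32 of 37 collagens had a log2 fold change below 0, with a median of -0.21 against -0.03 over all genes tested. In CA3, 35 of 38 were below 0, with a median of -0.24 against -0.03. In DG, 27 of 36 were below 0, with a median of -0.15 against -0.004 over all genes. By limma, 0 of 37 collagens were called in CA1 (all genes 0.0183%), 0 of 38 in CA3 (0.00607%) and 0 of 36 in DG (0.0741%). At an unadjusted p under 0.05, 3 of 37 passed in CA1 (all genes 3.43%), 3 of 38 in CA3 (1.53%) and 1 of 36 in DG (8.33%). edgeR called 0, 2 and 0 collagens and DESeq2 0, 0 and 1 in CA1, CA3 and DG. These shifts depended in part on libraries of aged rats. Without the 5 libraries with many genes at 0, 24 of 37 collagens were below 0 in CA1, with a median of -0.10, and 33 of 38 in CA3, with a median of -0.17. The genes of a library are not independent, so these counts carry no test.

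By family, all 10 fibrillar collagens were below 0 in CA1 and in CA3 and 9 of 10 in DG, with medians of -0.21, -0.49 and -0.21. Collagen IV was below 0 for 5 of 5 chains in CA1, 4 of 5 in CA3 and 5 of 5 in DG. Collagen VI was below 0 for 4 of 5 chains in CA1, 5 of 5 in CA3 and 2 of 5 in DG. Both multiplexins were above 0 in CA1 and in DG. Among fibroblast markers the medians were -0.16, -0.45 and 0.09 in CA1, CA3 and DG, and their part in the collagen values was not tested. None of the genes of synthesis, breakdown, receptors or basement membrane partners was called with age in any subfield.

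Col11a1 was the collagen with the lowest p in CA1 and in DG. In CA1 it ranged from 42.5 to 248 normalized counts in aged rats with a median of 111, and from 116 to 279 in young rats with a median of 187. In CA3 it ranged from 56.8 to 268 with a median of 134 in aged and from 117 to 376 with a median of 177 in young rats. In DG it ranged from 42.6 to 374 with a median of 183 in aged and from 226 to 499 with a median of 325 in young rats. Aged and young rats overlapped in each subfield, but 23 of 24 aged rats lay below the young median in CA1 and in DG, and 17 of 24 in CA3. The limma log2 fold change of Col11a1 was -0.74 ± 0.19 in CA1 (p = 0.000489, adjusted p = 0.667), -0.48 ± 0.20 in CA3 (p = 0.021, adjusted p = 1) and -0.91 ± 0.22 in DG (p = 0.000139, adjusted p = 0.0925). DESeq2 on recovered reads called it in DG (-0.83 ± 0.20, adjusted p = 0.021), 1 of 36 collagens, where 0.235% of all genes were called. Among R9 rats alone limma called it in DG too (-1.09 ± 0.17, adjusted p = 0.0348), and among R1-R2 rats it did not (-0.75 ± 0.36, adjusted p = 1). Against young rats it was at -0.71, -0.61 and -0.76 in CA1, CA3 and DG of AU rats and at -0.77, -0.34 and -1.07 in those of AI rats, and between AI and AU rats Col11a1 was not called (-0.06 ± 0.24, 0.27 ± 0.22 and -0.31 ± 0.25).

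In a comparison added after the data were seen, the log2 values of the 3 subfields of each rat were averaged and aged rats were compared with young rats over 34 rats. Of 37 collagens, 35 were below 0, with a median of -0.23 against -0.03 over all genes. Col11a1 was called (-0.71 ± 0.12, limma adjusted p = 0.00229), the only call among 37 collagens, where 0.195% of all genes were called. At an unadjusted p under 0.05, 6 of 37 collagens passed, all lower in aged rats, against 7.9% of all genes. Mean log2 Col11a1 was 7.12 ± 0.38 (SD, n = 24) in aged and 7.83 ± 0.22 (SD, n = 10) in young rats, and 23 of 24 aged rats were below the young median. The fold change of Col11a1 was -0.70 ± 0.12 without the rats that had a library with many genes at 0 (19 aged and 10 young rats, adjusted p = 0.00109), and 31 of 37 collagens were then below 0, with a median of -0.13. In smaller sets of rats its size was kept but the call was lost, as in the R9 series (-0.68 ± 0.16, limma adjusted p = 0.0992), the R1-R2 series (-0.75 ± 0.18, adjusted p = 0.582) and AI against young rats (-0.73 ± 0.14, adjusted p = 0.0509). It was lost as well without the rats with a library high in choroid plexus markers (-0.62 ± 0.16, adjusted p = 0.483, 18 aged and 7 young rats). It was also lost without rats with a library in which markers of another subfield were highest (-0.79 ± 0.18, adjusted p = 0.405, 14 aged and 5 young rats).

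Col4a5 was lower in aged rats by limma at an unadjusted p under 0.05 in CA1 and CA3, and it had been named by the study from these samples, so its direction here is not independent evidence. It ranged in CA1 from 0 to 97.4 normalized counts in aged rats with a median of 51.4 and from 38.0 to 105 in young rats with a median of 69.8. Its medians in aged and young rats were 47.5 and 77.3 in CA3 and 46.7 and 69.3 in DG. Groups overlapped, with 22, 20 and 20 of 24 aged rats below the young median in CA1, CA3 and DG. The limma log2 fold change of Col4a5 was -0.90 ± 0.44 in CA1 (p = 0.0487, adjusted p = 0.934), -0.61 ± 0.25 in CA3 (p = 0.0216, adjusted p = 1) and -0.41 ± 0.21 in DG (p = 0.0613, adjusted p = 0.598). In CA1 it was -0.46 ± 0.21 without the libraries with many genes at 0. On the mean of the subfields all 24 aged rats lay below the young median, at -0.64 ± 0.19 (limma p = 0.00204, adjusted p = 0.33), which did not pass the adjustment.

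**Figure D5:**
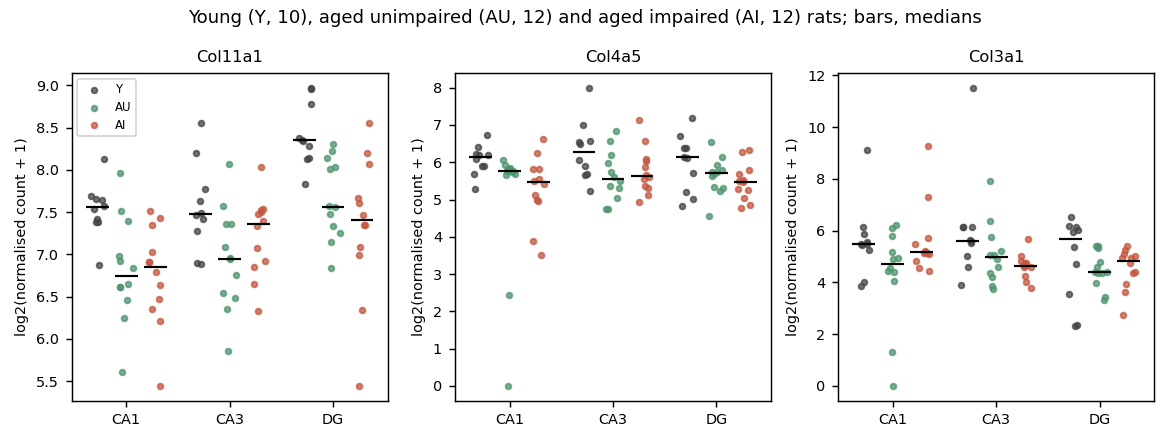
Col11a1, Col4a5 and Col3a1 as log2(normalized count + 1) in each library of young (Y, 10), aged-unimpaired (AU, 12) and aged-impaired (AI, 12) rats by subfield, with bars for medians. Col11a1 of aged rats lay mostly below that of young rats, with 23 of 24 below the young median in CA1 and in DG, while Col3a1 in CA3 has 1 young library far above all others, at 2899 normalized counts.

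The other collagens named in each comparison had the following age values. Col4a2 had a limma log2 fold change of -0.35 ± 0.14 in CA1 (p = 0.0172, adjusted p = 0.934), -0.24 ± 0.22 in CA3 and -0.21 ± 0.13 in DG, and Col4a1 -0.11 ± 0.11, -0.16 ± 0.15 and -0.21 ± 0.11. In CA1, 21 of 24 aged rats were below the young median of Col4a2 and 11 of 24 below that of Col4a1. For collagen VI, Col6a1 was at -0.17 ± 0.25, -0.25 ± 0.41 and 0.08 ± 0.26 in CA1, CA3 and DG. Col6a2 was at 0.07 ± 0.28, -0.51 ± 0.42 and 0.26 ± 0.30, and Col6a3 at -0.33 ± 0.42, -0.16 ± 0.46 and 0.31 ± 0.30. Each of these was within 2 standard errors of 0. Col18a1 was at 0.17 ± 0.36, -0.28 ± 0.54 and 0.41 ± 0.24, and Col25a1 at -0.07 ± 0.17, -0.16 ± 0.26 and -0.14 ± 0.13. Col4a3bp, which is no collagen, was at -0.14 ± 0.11, 0.03 ± 0.16 and -0.22 ± 0.12.

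The age calls of collagens I and III rested on a few libraries. Col3a1 in CA3 ranged from 12.5 to 241 normalized counts in aged rats with a median of 24.9, and from 13.9 to 2899 in young rats with a median of 47.9. Col1a1 in CA3 ranged from 0 to 94.6 with a median of 30.4 in aged and from 6.09 to 1951 with a median of 47.2 in young rats. By limma the log2 fold change in CA3 was -1.16 ± 0.47 for Col3a1 (p = 0.0195, adjusted p = 1), -1.0 ± 0.54 for Col1a1 and -0.85 ± 0.62 for Col1a2. edgeR called Col3a1 (-3.14, adjusted p = 0.0239) and Col1a1 (-2.84, adjusted p = 0.024) lower in aged CA3, where 0.0243% of all genes were called, while DESeq2 called neither (-0.65 and -0.39). Without the libraries high in fibroblast markers, which include that of young rat R9876, edgeR gave -0.70 and -0.56 with adjusted p of 1, and without the 5 libraries with many genes at 0 it gave -3.09 and -2.75 with an adjusted p of 0.0523 for each. In DG, which held no library high in fibroblast markers, Col1a1 was at -0.06 ± 0.37, Col1a2 at 0.21 ± 0.35 and Col3a1 at -0.41 ± 0.37 by limma, and in CA1 they were at -0.72 ± 0.65, -0.15 ± 0.46 and -0.66 ± 0.58. For Col3a1 in DG, all 24 aged rats were below the young median, with medians of 21.9 and 50.7, although the lowest value, 4.01, was in a young rat.

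The age differences were compared between subfields within rats. None was called by limma among 37 collagens (CA1 and CA3), 37 (CA1 and DG) or 38 (CA3 and DG), where 0.0% of all genes were called in each. At an unadjusted p under 0.05, 0, 0 and 1 collagens passed, against 0.748%, 2.48% and 2.33% of all genes. The size of the age differences was therefore not shown to differ between subfields for any collagen.

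AI and AU rats were compared to ask whether collagen levels followed memory among aged rats. By limma none of 37 collagens was called in CA1, of 37 in CA3 or of 35 in DG, where 0.0% of all genes were called in each. edgeR and DESeq2 also called none, with 6, 3 and 0 collagens by edgeR and 3, 3 and 0 by DESeq2 at an unadjusted p under 0.05 in CA1, CA3 and DG. Of all genes, 396, 315 and 279 passed so by edgeR and 476, 369 and 334 by DESeq2, of 16406, 16436 and 16182. By limma at an unadjusted p under 0.05, 3 of 37 collagens passed in CA1 (all genes 2.08%), 0 in CA3 (1.61%) and 0 in DG (1.77%). In CA1 these were Col6a3 (1.03 ± 0.39, limma p = 0.0144, adjusted p = 1), Col6a1 (0.57 ± 0.27, p = 0.0423, adjusted p = 1) and Col3a1 (1.29 ± 0.61, p = 0.0452, adjusted p = 1), each higher in AI rats. Among the CA1 libraries of AI rats, that of R2231 held 9.62 times the median of fibroblast markers and 44.4 times that of choroid plexus markers and 10 of 37 collagens at their CA1 maximum, and that of R9870 held 4.39 and 700 times and 13. The CA1 library of the AU rat R9865 held 3.71 and 565 times. Without the libraries high in fibroblast markers the values were 0.91 ± 0.36 for Col6a3 (limma p = 0.0184, adjusted p = 1), 0.44 ± 0.27 for Col6a1 (p = 0.119, adjusted p = 1) and 0.93 ± 0.56 for Col3a1 (p = 0.11, adjusted p = 1). Col6a3 ranged in CA1 from 14.1 to 233 normalized counts in AI rats with a median of 30.4, from 5.75 to 46.3 in AU rats with a median of 17.1, and from 10.9 to 161 in young rats with a median of 27.0, and the groups overlapped. In CA1, 26 of 37 collagens were above 0, with a median of 0.26 against 0.02 over all genes. Among R9 rats alone 13 of 37 were above 0 (median -0.15), and among R1-R2 rats alone 32 of 36 (median 0.61). Of the 5 libraries with many genes at 0, 2 were CA1 libraries of AU rats and 1 a CA1 library of an AI rat. Without these libraries 21 of 37 collagens were above 0 in CA1, with a median of 0.02, and Col3a1 was at 0.60 ± 0.46 there. In CA3 18 of 37 were above 0 and in DG 10 of 35, with medians of -0.02 and -0.10.

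The remaining named collagens had limma log2 fold changes between AI and AU rats that did not pass in CA1, CA3 and DG. Col1a1 was at 0.44 ± 0.76, -0.39 ± 0.48 and 0.31 ± 0.41, and Col1a2 at 0.43 ± 0.53, -0.30 ± 0.59 and -0.21 ± 0.35. Col4a1 was at -0.01 ± 0.13, 0.10 ± 0.16 and -0.08 ± 0.12, Col4a2 at -0.03 ± 0.16, 0.02 ± 0.26 and -0.10 ± 0.13, and Col4a5 at 0.24 ± 0.55, 0.13 ± 0.26 and -0.16 ± 0.20. Their intervals reach across 0. Col6a2 was at 0.24 ± 0.31, 0.45 ± 0.44 and 0.25 ± 0.34, Col18a1 at 0.50 ± 0.43, -0.54 ± 0.61 and -0.27 ± 0.28, and Col25a1 at -0.06 ± 0.18, 0.50 ± 0.30 and 0.04 ± 0.14.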

How the data were processed

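Libraries of poly-A RNA (Ion Proton) covered 3 subfields of 34 rats. Per the methods and the submitters' processing notes, reads were aligned to rn5 with TopHat2 and Bowtie2, and the authors deposited 1 table of normalized counts (unit signal), each count divided by a DESeq2 size factor for the library. Division by the smallest step gave whole reads for 100.0% of values (tolerance 1e-06). No other columns of per-sample values were present (0).

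Genes with a mean of at least 5 were tested with limma 3.58.1 in R 4.3.3 (lmFit, eBayes with trend) on log2(value + 1), two-sided, with Benjamini-Hochberg adjustment over all genes. edgeR 4.0.16 and DESeq2 1.42.0 ran on recovered reads. Scripts were tested on simulated data. The 3 libraries of a rat are paired by the labels: the mean correlation of their deviations was 0.0576, against 0.000162 over 3366 pairs of different rats. The subfield test had no block, and the study's methods describe pairwise tests without saying whether a block was used.

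Values are given for every collagen called by limma over all libraries and for 11 collagens named in every comparison (Col1a1, Col1a2, Col3a1, Col4a1, Col4a2, Col4a5, Col6a1, Col6a2, Col6a3, Col18a1, Col25a1); Col4a6 was not analysed here. The members, gene lists and tests were chosen with earlier results of these data known. Fits that left out libraries by marker level, by subfield marker or by genes at 0, the mean over subfields and the collagen VI ratio were added after seeing the data. Promoters came from RefSeq (GRCr8), whose build differs from that of the counts. Permutation tests used scipy 1.17.1. The labels do not say whether libraries were made in batches. In the fits of age and of memory status, p-values measure the spread between rats. Subfield fits without a block treat the 3 libraries of a rat as independent, so their p-values rest on the spread between libraries.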

Additional observations from a re-analysis of the deposited data

Results flagged for a closer look

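In 15 of 111 groups of 10 young libraries (1 collagen in 1 subfield each), a single library lay apart from the rest by more than Dixon's 95% critical value. The gap was taken on log2(normalized count + 1), whereas the values below are normalized counts. Chance gives this in about 1 in 20 groups, and collagens of 1 library are not independent. In CA3 of rat R9876, whose library was high in fibroblast markers, Col3a1 stood at 2899 normalized counts (the other 9 libraries 13.9 to 68.9), Col1a1 at 1951, Col1a2 at 1001, Col18a1 at 1100 and Col6a3 at 618. In CA1 of rat R2175, also high in fibroblast markers, Col1a1 stood at 536, Col3a1 at 549 and Col1a2 at 107. In rat R2221, Col16a1 (1235) and Col24a1 (56.3) were high in CA3, and Col8a2 was listed at 0 in CA1, where the other libraries held 5.11 to 17.3. The CA3 library of R2221 held 47.7 times the CA3 median of summed choroid plexus markers. Low values in CA3 were Col4a3 at 20.4 and Col6a5 at 8.35 in rat R9780 and Col20a1 at 12 in rat R9877. In DG, Col9a1 stood at 41.9 in rat R9881, against 2.19 to 11.0, and that library held 20.6 times the DG median of summed choroid plexus markers. The part of choroid plexus tissue in these values was not tested.

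The subfield difference of 13 collagen entries differed between the R9 and R1-R2 rats in limma (adjusted p under 0.05). For CA1 minus CA3, R9 minus R1-R2 was 2.54 on the log2 scale for Col8a2, 1.10 for Col15a1, 1.05 for Col9a3 and 0.56 for Col4a2, and it was -1.60 for Col9a1, -1.29 for Col5a1 and -1.16 for Col6a1. For CA3 minus DG it was 1.79 for Col23a1 (ENSRNOG00000046785), 1.49 for Col23a1 (ENSRNOG00000003349), 1.70 for Col9a1, 1.67 for Col6a1, 1.61 for Col5a1, 1.41 for Col18a1, 1.32 for Col1a2 and 1.29 for Col6a6, and it was -0.74 for Col25a1. Col9a1, Col5a1 and Col6a1 had opposite signs in these comparisons, which share the CA3 libraries. The cause was not tested.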

How the results depend on the processing

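Of 2835 recomputed values of single collagens, 2660 kept their direction and side of the threshold, 87 lost a call, 76 gained one, 9 moved and 3 with a call turned sign (sign changes of values without a call are not counted). The 3 were CA3 against DG for Col23a1 (ENSRNOG00000003349) in R9 rats alone (0.058), Col5a1 in R1-R2 rats alone (-0.21) and Col25a1 without libraries in which markers of another subfield were highest (0.33). For CA1 against CA3, the 4 collagens called became 7 with rat as a replicate block or by edgeR, 9 by DESeq2 or with the vascular score as covariate, 8 without libraries high in fibroblast markers (9 by edgeR and 9 by DESeq2) and 8 without libraries with markers of another subfield highest. For CA3 against DG, 11 became 7 in R9 rats alone and 18 by edgeR without the libraries with over 300 genes at 0. With age, 0 became 2 in CA3 by edgeR, and 1 in DG by DESeq2 and in R9 rats alone. Where a comparison held none of the libraries left out, its values could not change. This was so in DG for the libraries high in fibroblast markers. On the mean of subfields, 1 became 0 in R9, R1-R2 or AI rats alone, and without rats with libraries high in choroid plexus markers or with markers of another subfield highest. The causes were not tested, and sets with fewer rats have less power. The rat block, which pairs the libraries of a rat, changed no other collagen count by over 1.5 times. Values at low levels, as for Col8a2 and Col15a1, are limited by depth.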
